A study of Mus musculus with 48 samples.

Results

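Mid-width acetylated H3K4me3 regions of mouse hippocampal neurons are described here. They were chosen by peaks of the Control libraries: overlapping H3K4me3 peaks on chromosomes 1 to 19 were merged, and a region was kept when all 4 Control H3K4me3 libraries had a peak there, when the mean covered length per Control library was at least 1500 and under 4000 bp, and when all 3 Control H3K27ac libraries had an overlapping peak. Covered length is the number of bases of a region that lie under peaks of 1 library. The rule kept 9469 of the 30258 regions with an H3K4me3 peak in all 4 Control libraries, which were themselves part of 59935 merged regions. Of the other regions, 11326 were narrower and acetylated, 1605 were broader and acetylated, and 7858 lacked an H3K27ac peak in at least 1 Control library. The median width of the 9469 regions was 2268.75 bp, with quartiles at 1871.75 and 2824.75 bp.

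H3K4me3, trimethylation of lysine 4 on histone H3, marks the nucleosomes around active gene starts, and H3K4me1, the single-methyl form, is typically found at enhancers and on the shoulders of promoters. Acetylation of lysine 27 and lysine 9 (H3K27ac, H3K9ac) accompanies active promoters, and H3K27ac also active enhancers. SETD1B is a catalytic subunit of one of the COMPASS complexes, which methylate lysine 4 and are recruited to CpG-rich promoters and to transcribing RNA polymerase II.

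The study compared mice labelled Setd1b cKO (conditional knockout) with mice labelled Control, aged 4 to 6 months and of the C57BL/6J strain. Its 30 ChIP-seq libraries were made from sorted neuronal nuclei of the hippocampal CA region, with 4 libraries a genotype for H3K4me3 and H3K4me1, 3 Control and 4 cKO libraries for H3K27ac, and 4 Control and 3 cKO libraries for H3K9ac. RNA was sequenced from CA neurons, with 3 libraries a genotype, and from whole CA tissue, with 6 a genotype. The Cre driver and the deleted exons are not given in the sources used here, nor is whether each library came from 1 animal, so the p-values measure the spread between these libraries. ChIP libraries held 24.4 to 41.6 M tags, neuron RNA libraries 55.7 to 69.1 M counts, and whole CA libraries 14.9 to 20.1 M counts. Setd1b itself was not lower in the libraries labelled cKO: it ranged from 47.6 to 65.4 CPM (counts scaled to a common library size) in Control and from 59.9 to 72.1 in cKO neuron RNA, and from 29.5 to 54.4 and from 54.6 to 67.6 in whole CA. It was called higher in whole CA labelled cKO (log2 fold change 0.585 ± 0.113, SE, adjusted p = 0.00415, edgeR). In neuron RNA it was not called (adjusted p = 0.361, edgeR). These counts cover the whole gene and do not check the labels, so each genotype below is the one the labels give. In neuron RNA, all 16 neuron markers were detected and summed to 5720 to 6275 CPM over both genotypes, while 8 oligodendrocyte markers summed to 118 to 140 CPM, 6 astrocyte markers to 27.1 to 34.1 CPM and 6 microglia markers to 9.95 to 11.7 CPM.

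Most of the regions sat at gene starts. A start listed in RefSeq (GRCm38.p6) lay in 6866 of the 9469 regions (72.5%), a further 2431 (25.7%) overlapped a gene without a listed start, and 172 (1.82%) lay outside genes. The same share with a start was 72.0% in the broader acetylated regions, 15.3% in the narrower ones and 15.9% in those not acetylated in every Control library. The start table is not complete, so the shares are lower bounds on starts. Below, a region inside a gene is one that overlaps the gene and holds no listed start. It may still hold an unlisted start.

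The promoter sequences of starts in the regions were rich in CpG dinucleotides. Over 300 bases, from 250 before to 50 after the start, the 9493 starts in the regions held a median of 23 CpG, against 3 for the 16606 starts in no region, 14 in narrower acetylated regions and 22 in broader ones. Among single motifs counted on both strands, GGGCGG, the core of the Sp1 box, was in 67.9% of these promoters and in 36.0% of all 31396 listed promoters, and TATAAA was in 5.55% and 13.6%. CCGGAAG, a core of Ets-family sites, was in 20.2% of promoters in the regions, 8.94% in the broader regions and 9.004% of all listed promoters. CCAAT was as frequent as in all promoters (37.2% and 37.3%). Letters that match are a description of the sequence and not bound sites. Below are promoters of 4 genes whose regions are described in the results, and for comparison that of Tas2r134, a bitter taste receptor gene whose start lay in no region and whose 3 CpG equal the median of such starts. Each is 300 bases in the gene's direction from RefSeq GRCm38.p6, with CpG in capitals. Akr1a1 (chr4:116651625-116651924, minus strand, 11 CpG) lost H3K4me1 beside its region in the libraries labelled cKO. Htr5a (chr5:27841697-27841996, plus strand, 14 CpG) had shorter H3K9ac there. Thsd4 (chr9:60141171-60141470, minus strand, 2 CpG) and Wdr17 (chr8:54724319-54724618, minus strand, 19 CpG) had lower and higher RNA in the libraries labelled cKO. Tas2r134 lies at chr2:51627261-51627560 on the plus strand. Thsd4 and Wdr17 were picked for printing after their values were seen.
Akr1a1: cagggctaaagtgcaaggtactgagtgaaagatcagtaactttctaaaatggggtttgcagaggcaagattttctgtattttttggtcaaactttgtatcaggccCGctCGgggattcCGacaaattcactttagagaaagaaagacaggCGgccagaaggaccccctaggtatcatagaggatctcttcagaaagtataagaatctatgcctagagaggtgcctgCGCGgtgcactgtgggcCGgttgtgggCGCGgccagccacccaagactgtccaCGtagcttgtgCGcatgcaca
Htr5a: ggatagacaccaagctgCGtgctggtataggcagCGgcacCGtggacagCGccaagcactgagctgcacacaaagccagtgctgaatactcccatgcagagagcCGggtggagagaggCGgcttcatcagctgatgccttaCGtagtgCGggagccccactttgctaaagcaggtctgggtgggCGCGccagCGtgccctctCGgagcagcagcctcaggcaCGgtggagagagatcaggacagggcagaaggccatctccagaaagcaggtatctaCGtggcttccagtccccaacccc
Thsd4: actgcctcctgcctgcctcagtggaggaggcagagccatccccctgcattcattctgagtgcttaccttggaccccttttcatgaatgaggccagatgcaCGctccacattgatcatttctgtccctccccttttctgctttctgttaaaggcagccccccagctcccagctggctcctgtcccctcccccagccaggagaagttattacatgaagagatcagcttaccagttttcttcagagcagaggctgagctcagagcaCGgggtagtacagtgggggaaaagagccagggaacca
Wdr17: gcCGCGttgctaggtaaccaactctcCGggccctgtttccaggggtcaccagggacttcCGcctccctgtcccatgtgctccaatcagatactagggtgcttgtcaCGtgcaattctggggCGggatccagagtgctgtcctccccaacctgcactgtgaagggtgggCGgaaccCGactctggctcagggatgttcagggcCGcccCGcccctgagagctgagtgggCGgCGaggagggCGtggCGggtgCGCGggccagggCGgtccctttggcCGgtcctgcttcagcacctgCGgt
Tas2r134: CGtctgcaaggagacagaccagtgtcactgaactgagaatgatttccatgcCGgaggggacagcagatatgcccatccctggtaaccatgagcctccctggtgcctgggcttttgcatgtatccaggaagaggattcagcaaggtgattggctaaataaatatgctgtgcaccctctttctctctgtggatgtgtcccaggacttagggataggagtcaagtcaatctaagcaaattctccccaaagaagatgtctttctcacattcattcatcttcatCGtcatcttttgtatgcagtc

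Of the printed promoters, Wdr17 is closest to the median of the regions in CpG, while Thsd4, whose start lies in one of the regions, has fewer CpG than the taste receptor promoter.

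H3K4me3 covered less of the regions in the libraries labelled cKO. The library medians were 2224, 2272, 2294 and 2288 bp in Control and 1902, 2085, 2034 and 2017 bp in cKO, so no cKO library reached the lowest Control library. In sum, H3K4me3 peaks covered 22.7 ± 0.31 Mb of the regions in Control and 19.7 ± 0.77 Mb in cKO (SD, n = 4 each), a difference of -13.2% of the Control mean. Every cKO library lay below every Control library at 3841 of the 9469 regions (40.6%), against 23.3% of all 30258 regions, and every cKO library lay above every Control library at 7 regions (0.0739%), against 1.01% of all regions. The Control libraries chose the regions by this same measure, so these H3K4me3 values are a description, carry no test, and nothing is read from the comparison with all regions. When the same rule was applied to the cKO libraries instead, the median log2 difference was -0.04 rather than -0.13. Each genotype had a single input library, so input and genotype cannot be told apart in any ChIP comparison here.

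H3K27ac, also used by the rule, differed less. Its library medians were 1568, 1515 and 1647 bp in Control and 1411, 1567, 1480 and 1497 bp in cKO, and the 2 groups overlapped. The first of these Control libraries carries another replicate number in its file's name than in its label, and the label was followed. Peaks covered 15.96 ± 0.61 Mb in Control (SD, n = 3) and 14.9 ± 0.64 Mb in cKO (SD, n = 4), -6.97% of the Control mean. Every cKO library lay below every Control library at 1236 regions (13.1%), against 7.48% of all regions, and above at 158 (1.67%), against 2.32%, from which likewise nothing is read.

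**Figure D1:**
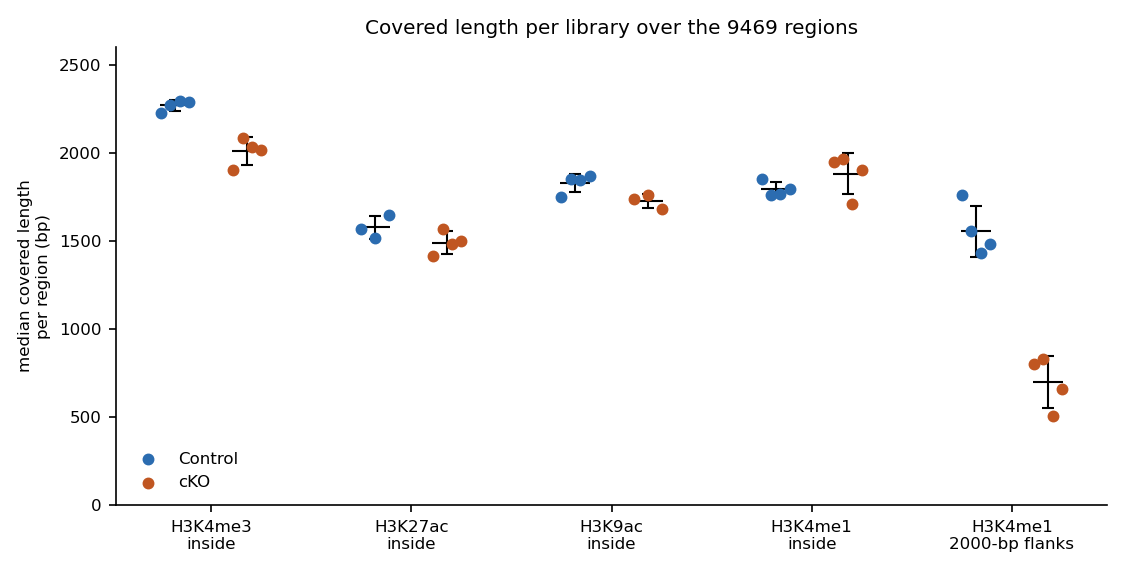
Median covered length per region (bp) over the 9469 regions, 1 point per library, for 4 marks inside the regions and for H3K4me1 in the 2000 bp on each side; the black bar is the mean of the library medians with its SD. Control and cKO libraries are apart for H3K4me3 inside the regions and for H3K4me1 in the flanks (1428 to 1758 bp against 507 to 830 bp) and overlap for H3K27ac, H3K9ac and H3K4me1 inside.

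At the lower bound of the rule, the closest region inside was that of Selenov, with a mean Control H3K4me3 length of 1500 bp, and the closest outside that of Tbc1d1 with 1499.75 bp. At the upper bound, the region of Ccnt2, a cyclin that partners CDK9 in transcription elongation, was just inside with 3998.25 bp, and a region without a listed start was just outside with 4002 bp. The bounds thus cut a continuous range of widths.

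H3K4me1 beside the regions differed more, relative to Control, than any of the 4 marks inside them. In the 2000 bp on each side of a region, the library medians of H3K4me1 were 1428 to 1758 bp in Control and 507 to 830 bp in cKO, with no overlap. In sum the flanks held 14.96 ± 0.80 Mb of H3K4me1 peaks in Control and 9.72 ± 1.196 Mb in cKO (SD, n = 4 each), -35.0% of the Control mean. The other marks were shorter in the flanks as well, with differences of -29.0% for H3K4me3, -18.6% for H3K9ac and -11.6% for H3K27ac. Of these, H3K4me3 and H3K27ac were used by the rule, so their values are a description. Both flanks lacked any H3K4me1 peak at 369 ± 81.4 regions in Control libraries and at 978 ± 363 in cKO libraries.

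This window was added after the data were seen, and the rule did not use H3K4me1. Tested with limma on the log2 of covered length plus 100 bp, over all regions, 1537 of the 9342 regions that could be tested were shorter in flanking H3K4me1 and 15 were longer at an adjusted p under 0.05. The background over all 28815 tested regions was 6.92% shorter and 0.850% longer, and the members' shares were 16.5% and 0.161%. The median log2 difference was -0.65 at the regions and -0.02 over all regions tested. Centring the libraries on their medians moved the median of all regions to 0.34 and that of the members to -0.28, with 1310 members shorter and 101 longer. Without Control replicate 1 the counts were 879 shorter and 17 longer, and without Control replicate 2 they were 931 and 17. With lengths taken only from peaks of -log10 q of at least 5, the direction turned, with 17 regions shorter and 109 longer, and 2.14 to 7.56% of H3K4me1 peaks in Control libraries and 7.45 to 12.8% in cKO libraries reached that strength.

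The other width classes differed from this. Flanking H3K4me1 was -20.9% of the Control mean in the broader acetylated regions, with 207 of 1586 shorter and 5 longer, and 3.78% above the Control mean in the narrower acetylated regions, with 145 of 11146 shorter and 132 longer. Within the mid-width class, 236 of 2321 regions of the narrowest width group (1500 to 1871.75 bp; the groups split the regions evenly into 4) had shorter flanking H3K4me1, and 379 of 2339, 462 of 2341 and 460 of 2341 in the following groups. Differences between classes were not tested.

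**Figure D2:**
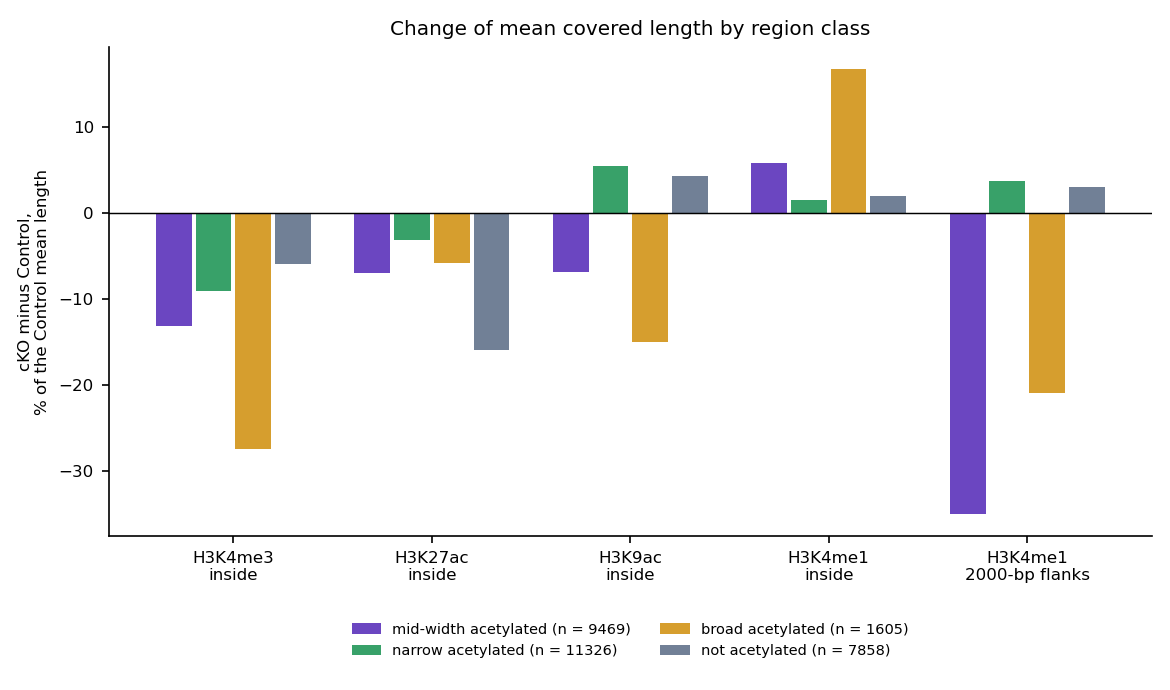
Difference of mean covered length between cKO and Control in percent of the Control mean (bars), for 4 classes of H3K4me3 regions and 5 measures; not acetylated means without an H3K27ac peak in at least 1 Control library. Flanking H3K4me1 is -35.0% at mid-width acetylated regions and 3.78% at narrow acetylated regions, while H3K4me3 inside is -27.5% at broad regions and -13.2% at mid-width ones.

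The single regions given next are those with the smallest adjusted p and are not typical of the class. In the flanks of 63 of the 9469 regions, every Control library had an H3K4me1 peak and no cKO library had one. This held at 84 of all 30258 regions. Akr1a1, an aldo-keto reductase that reduces aldehydes, had 2000 bp of flanking H3K4me1 in each of the 4 Control libraries and 0 bp in each of the 4 cKO libraries (adjusted p = 1.61e-08, limma). Kdm3a, which demethylates H3K9, had the same values, 2000 bp in every Control library and 0 bp in every cKO library. In both cases the covered length equals 1 whole flank of the region in Control and is absent in cKO.

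A region inside Oxr1, an oxidation resistance gene, covered 2000, 2028, 2063 and 2000 bp in Control and 0 bp in all cKO libraries. Trmt61b, a mitochondrial tRNA methyltransferase gene, covered 1882, 1677, 1880 and 1944 bp in Control and 0 bp in cKO, and a region inside Mast4, a kinase gene, 2000, 1805, 2000 and 2167 bp and 0 bp. At these 5 regions with the smallest adjusted p, no cKO library had any flanking H3K4me1 peak. Among the 5 regions whose mean H3K4me3 width was closest to the median, Kif3a, a subunit of the kinesin-2 motor, covered 2471, 1653, 2000 and 966 bp in Control against 75, 36, 0 and 0 bp in cKO (adjusted p = 0.000953, limma), and Plekhh3 2690, 2682, 2451 and 2713 bp against 2000 bp in every cKO library (adjusted p = 0.0061). The other 3, Lig3 (a DNA ligase), Lgmn (the lysosomal protease legumain) and Atf7ip (a partner of the H3K9 methyltransferase SETDB1), had overlapping groups, with adjusted p of 0.372, 0.620 and 0.940.

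Few regions gained flanking H3K4me1. The region shared by Parpbp and Nup37 had 0, 4, 0 and 0 bp in Control and 122, 95, 81 and 95 bp in cKO. These cKO lengths are small, about the size of the 100 bp added before the log2. Atp9a, which encodes a lipid flippase, had 7, 68, 39 and 0 bp in Control and 294, 452, 252 and 388 bp in cKO. Irf2bp2, a transcriptional corepressor gene, rose from 2284, 2290, 2261 and 2297 bp to 2882, 2703, 2803 and 2829 bp, and Maz, a zinc finger factor gene, from 755, 588, 668 and 675 bp to 1374, 1309, 1004 and 1096 bp. All 4 were called longer at adjusted p from 0.000575 to 0.0126 (limma), and the groups did not overlap.

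**Figure D3:**
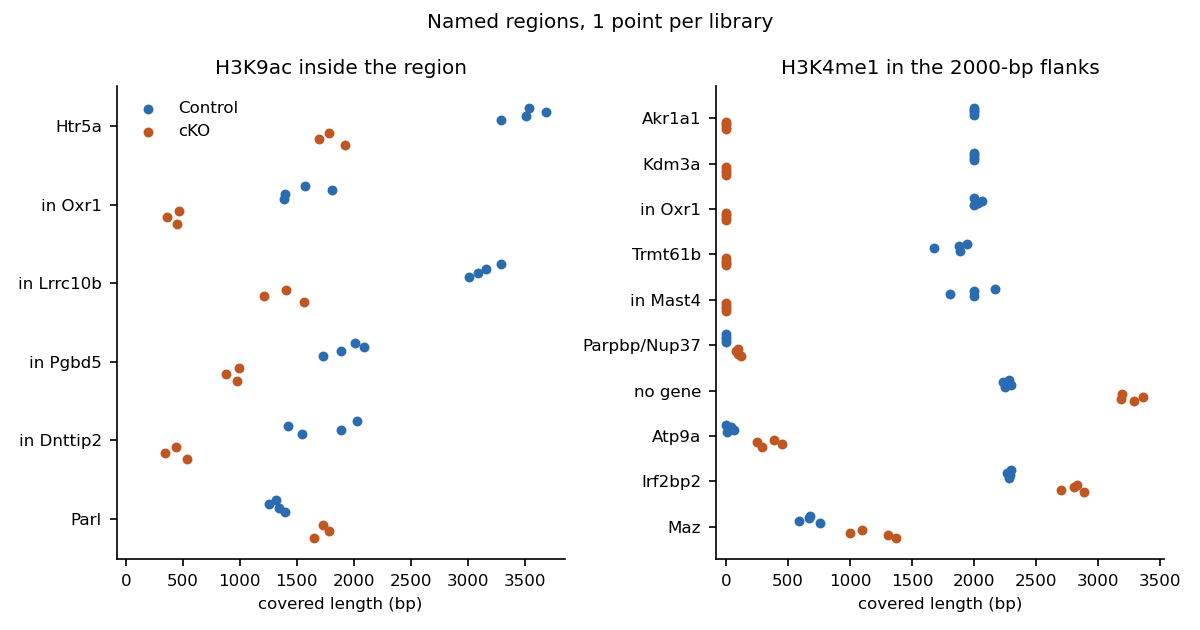
Covered length (bp) in every library at the regions with the smallest adjusted p. Left, H3K9ac inside the region, and right, H3K4me1 in the 2000-bp flanks. Points are libraries, and "in" marks a region that overlaps a gene and holds no listed start. Akr1a1, Kdm3a, Oxr1, Trmt61b and Mast4 have 0 bp of flanking H3K4me1 in every cKO library.

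Inside the regions, H3K4me1 was not lower. The library medians were 1848, 1762, 1763 and 1796 bp in Control and 1947, 1966, 1711 and 1900 bp in cKO, with the groups overlapping. Of 9454 regions tested with limma, 31 had shorter H3K4me1 (0.328%) against a background of 0.285%, and 66 had longer H3K4me1 (0.698%) against 0.866%, so both shares were near those of all regions. Without cKO replicate 3 the counts were 36 shorter and 152 longer. When the region was extended by 2000 bp on each side, the balance turned to 674 shorter and 32 longer.

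The named regions inside which H3K4me1 changed were few. Gcnt2, a glycosyltransferase gene, fell from 1841, 1841, 1841 and 1809 bp in Control to 1431, 1419, 1407 and 1421 bp in cKO (adjusted p = 3.5e-06, limma). Jrkl fell from 1918, 1690, 1693 and 1776 bp to 1010, 975, 969 and 1024 bp (adjusted p = 0.000723), and Ankrd50, an endosomal sorting gene, from 2631, 2516, 2740 and 2605 bp to 1655, 1491, 1559 and 1661 bp (adjusted p = 0.000946). A region inside Erich1 and a region outside listed genes on chromosome 10 (chr10:130540986-130542961) fell as well, to 1810 to 1952 bp and to 1434 to 1577 bp. Rtn4, which encodes the myelin-associated growth inhibitor Nogo, rose from 2155, 2178, 2040 and 2137 bp to 3349, 3346, 3349 and 3349 bp, and a region inside Sh3glb2 from 2536, 2616, 2520 and 2578 bp to 3365 bp in every cKO library (adjusted p = 2.98e-05 and 2.72e-05). The region shared by Frs3, an adaptor of FGF receptors, and Prickle4 rose from 1193, 1204, 1194 and 1116 bp to 2159, 2159, 2065 and 2022 bp, a region inside Pxk from 1713 to 1836 bp to 2658 to 2771 bp, and a region inside Impact from 1071 to 1171 bp to 2012 bp in every cKO library. At Rtn4 and inside Sh3glb2 and Impact, H3K4me1 reached the whole length, or nearly so, of the region in cKO.

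H3K9ac, the other mark the rule did not use, was somewhat shorter. The library medians were 1748, 1852, 1847 and 1865 bp in Control and 1737, 1760 and 1680 bp in cKO, so Control replicate 1 lay within the cKO range. The covered sum was 18.2 ± 0.50 Mb in Control (SD, n = 4) and 16.95 ± 0.41 Mb in cKO (SD, n = 3), -6.84% of the Control mean. With limma, 127 of 9466 regions were shorter (1.34%), against a background of 1.57%, and 1 was longer (0.0106%), against 0.460%, so the share called shorter was near that of all regions. The count of shorter regions rested on single libraries: it was 99 without Control replicate 1, 49, 49 and 44 without Control replicates 2, 3 and 4, and 33, 34 and 14 without cKO replicates 1, 2 and 4. It was 6 within the 1 sequencing lane, as named in the file names, that held 3 Control and 2 cKO libraries, and 331 with an offset of 1000 bp. Of the 127 shorter regions, 85 were in the widest width group (of 2367) and 13, 13 and 16 in the others (of 2366, 2368 and 2365).

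At Htr5a, a serotonin receptor gene, H3K9ac covered 3289, 3515, 3684 and 3541 bp in Control and 1927, 1696 and 1788 bp in cKO, a log2 difference of -0.92 ± 0.068 (SE; adjusted p = 0.00261, limma). A region inside Oxr1 (chr15:41830443-41832913) covered 1392, 1398, 1813 and 1577 bp in Control and 450, 362 and 471 bp in cKO (adjusted p = 0.0027). It is a different region from the one above with flanking H3K4me1, and both lie in the same gene. A region inside Lrrc10b covered 3012, 3092, 3157 and 3291 bp in Control and 1563, 1212 and 1410 bp in cKO, one inside Pgbd5 1730, 1891, 2094 and 2011 bp and 978, 884 and 994 bp, and one inside Dnttip2 1549, 1888, 1422 and 2031 bp and 537, 349 and 443 bp. At all 5 the groups were far apart, and 4 of the 5 had no listed start. The region called longer was that of Parl, a mitochondrial rhomboid protease gene, with 1394, 1346, 1259 and 1321 bp in Control and 1653, 1784 and 1730 bp in cKO (adjusted p = 0.0451), a call that was lost whenever any 1 library was left out (adjusted p of 0.0571 to 0.153).

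H3K4me1 differed mostly on the gene body side of the starts when all deposited peaks were used. Among the regions, 4228 gene starts were the only listed start of their gene and of their region, and peaks were placed by distance from that start in the gene's direction. In the window from 1000 to 4000 bp after the start, H3K4me1 covered a median of 1830 ± 109 bp in Control and 1004 ± 105 bp in cKO (SD of library medians, n = 4 each). Its mean length there was 1786 ± 67.2 bp in Control and 1199 ± 101 bp in cKO. In the same window before the start, its mean length was 492 ± 25.02 bp in Control and 462 ± 44.7 bp in cKO. The medians before the start were 25.6 ± 34.3 bp and 34.8 ± 32.6 bp. No H3K4me1 peak lay in that window at 49.0 ± 2.44% of starts in Control and 48.1 ± 2.65% in cKO, which leaves little length to lose there. The groups were apart after the start, with Control libraries at 1743 to 1984 bp and cKO libraries at 865 to 1086 bp, and overlapped before it.

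With limma, H3K4me1 after the start was shorter at 952 of 4095 starts tested (23.2%) and longer at 8 (0.195%), against 11.7% and 1.74% of all 9595 starts tested. With the libraries centred the counts were 520 shorter and 93 longer, and with lengths from peaks of -log10 q of at least 5 only, which left 872 starts to test, the direction turned, with 3 shorter and 41 longer. Before the start it was shorter at 30 of 2391 (1.25%) and longer at 5 (0.209%), against 0.771% and 0.518%. The difference between both windows was tested itself: the genotype difference was lower after than before the start at 496 of 4193 starts (11.8%) and higher at 24 (0.572%), against 5.41% and 0.961% of all starts tested. Those 520 calls fell to 306 without Control replicate 2 and to 331, 337, 341 and 346 without Control replicates 1, 3 and 4 and cKO replicate 3.

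H3K9ac was also measured on both sides. After the start its library medians were 464 ± 57.6 bp in Control (SD, n = 4) and 304 ± 47.9 bp in cKO (SD, n = 3), ranging from 379 to 509 bp and from 250 to 339 bp. With limma it was shorter at 236 of 3504 starts (6.74%) and longer at 3 (0.0856%), against 6.06% and 0.694% of all starts tested, so the share shorter was near the background. Centring the libraries left 60 shorter and 3 longer. Before the start it was shorter at 8 and longer at 10 of 1440 starts (0.556% and 0.694%), against 0.473% and 0.973%, and with the libraries centred 10 and 7. Those 18 calls became 4, 1 and 0 without cKO replicates 2, 1 and 4 and 27 without Control replicate 2. The difference between both windows was lower at 91 of 3704 starts (2.46%) and higher at 6 (0.162%), against 2.12% and 0.395%, again near the background. The 239 calls after the start fell to 86, 114 and 104 without Control replicates 2, 3 and 4 and to 157 and 92 without cKO replicates 1 and 4, and the 97 calls of the difference fell to 11 to 57 without any 1 library. These windows were added after the data were seen.

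At 2000 bp after the start, H3K4me1 peaks lay over 70.6 ± 1.87% of the starts in Control and 46.2 ± 4.64% in cKO, and at 3000 bp over 47.4 ± 2.71% and 22.2 ± 3.09%. At 1000 bp the order was the other way, with 81.5 ± 2.23% and 86.4 ± 2.48%, and at the start itself H3K4me1 covered 43.1 ± 3.36% in Control and 53.6 ± 8.86% in cKO. At 2000 bp before the start the values were 14.97 ± 0.77% and 13.6 ± 1.51%. H3K4me3, whose Control width chose the regions, covered 26.2 ± 1.25% in Control and 9.23 ± 1.94% in cKO at 2000 bp after the start. At 2000 bp before it, the H3K4me3 values were 3.94 ± 0.23% and 3.06 ± 0.25%. Its mean length from 1000 to 4000 bp after the start was 715 ± 24.8 bp in Control and 419 ± 49.5 bp in cKO. Its median reach after the start was 1500 ± 22.6 bp in Control and 1301 ± 47.1 bp in cKO, and before the start 685 ± 9.63 bp and 693 ± 28.6 bp. H3K9ac reached 1347 ± 42.2 bp and 1231 ± 34.8 bp after the start and 586 ± 16.1 bp and 603 ± 17.4 bp before it. H3K27ac at 2000 bp after the start was 12.3 ± 2.04% in Control (n = 3) and 7.8 ± 0.87% in cKO (n = 4). Reach before the start thus overlapped between the genotypes for H3K4me3 and H3K9ac, while reach after it did not.

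**Figure D4:**
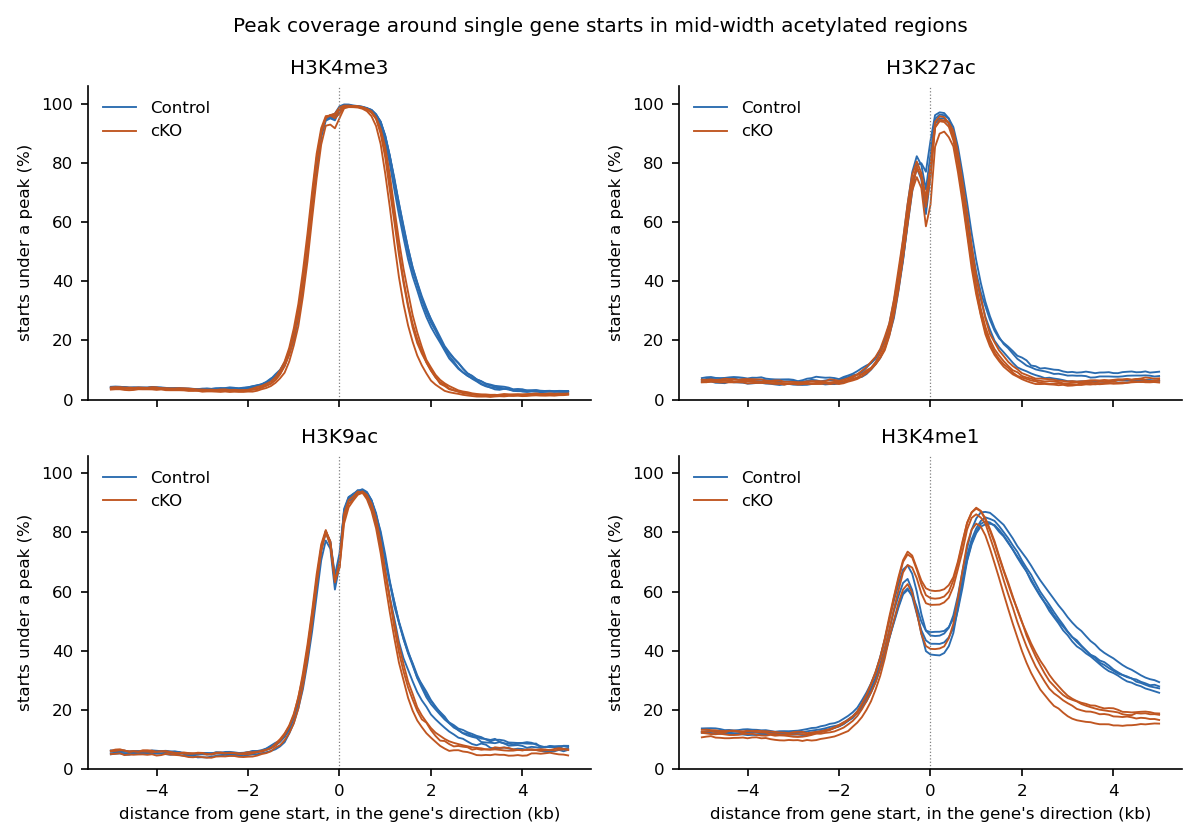
Percent of the 4228 single gene starts in the regions that lie under a peak, by distance from the start in the gene's direction (kb), with 1 line per library. At 2 kb after the start every Control line lies above every cKO line for all 4 marks; there H3K4me1 covers 70.6% of starts in Control and 46.2% in cKO, and at 2 kb before it the values are 14.97% and 13.6%.

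Regions with and without a listed start differed in the flanks as well. With a start, flanking H3K4me1 fell by 39.6% of the Control mean, and 1209 of 6784 regions (17.8%) were called shorter. Without a start, away from the regions of chromosome 18, for which no starts are listed, it fell by 23.2%, with 282 of 2293 (12.3%) shorter. The difference between both kinds was not tested.

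At 22 of the 9469 regions all Control libraries had an H3K4me3 peak, as the rule requires, and no cKO library had one. Among all 30258 regions this held at 736; the rule used this contrast, so nothing is read from the 2 counts. Their library medians in Control were 1656 to 1936 bp, below the median of the class. Only 2 of the 22 had a listed start and 21 overlapped a gene. In Fam160a1 H3K4me3 covered 3458, 3474, 3524 and 3604 bp in Control, in Ppp3ca, the catalytic subunit of calcineurin, 2750, 2738, 3155 and 3246 bp, and in Atp2b1, a plasma membrane calcium pump, 2246, 2873, 3588 and 3015 bp, each against 0 bp in all cKO libraries. A region holding the starts of the predicted genes Gm34772 and Gm34567 covered 1695, 2018, 3201 and 2904 bp in Control and 0 bp in cKO. These H3K4me3 values are a description, since the rule fixed the Control side.

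The other marks did not all go with H3K4me3 there. H3K27ac peaks were in every cKO library at 19 of the 22 regions and in no cKO library at 2, and H3K4me1 peaks were in every cKO library at 21. H3K27ac nevertheless lay lower in every cKO library than in any Control library at 7 of the 22 (7.48% of all regions and 13.1% of the 9469). Its library medians were 1611 to 2005 bp in Control and 1544 to 1723 bp in cKO. The rule used Control H3K27ac, so these values are a description. H3K4me1 had library medians of 2173 to 2243 bp in Control and 2208 to 2290 bp in cKO, and none of the 22 was called shorter. At some of the 22, such as those in Ppp3ca (3323 bp) and Atp2b1 (3736 bp), it covered the whole region in every library. There, neither a longer peak nor a change of signal strength could show in covered length. H3K9ac was lower: its library medians were 1215 to 1468 bp in Control and 407 to 777 bp in cKO, every cKO library lay below every Control library at 13 of the 22 (10.6% of all regions and 17.4% of the 9469), and 8 were called shorter by limma (1.57% of all regions tested). The 22 were picked by their H3K4me3, whose difference goes with that of H3K9ac across the regions, so these counts are a description. Most of the 22 regions thus lay inside genes and still had H3K4me1 and H3K27ac peaks in the libraries labelled cKO, the latter shorter at some.

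The regions with the lowest and highest H3K27ac differences among those without overlap are likewise a description. Spsb4 had 1209, 510 and 610 bp in Control and 0 bp in all 4 cKO libraries. Scube1, a secreted EGF-domain protein gene, had 1304, 886 and 923 bp in Control and 0, 198, 190 and 0 bp in cKO, and Ghsr, the ghrelin receptor gene, 1606, 898 and 593 bp and 0, 221, 0 and 0 bp. At the other end, Gabrg1, a GABA-A receptor subunit gene, had 713, 512 and 386 bp in Control and 1295, 1482, 986 and 1321 bp in cKO, and Asb4 176, 238 and 210 bp and 541, 633, 590 and 486 bp. Cenpc1, a centromere protein gene, had 710 to 963 bp in Control and 1022 to 1742 bp in cKO. For H3K4me3 the 3 highest such differences were small: at Manbal, 1738 to 1786 bp in Control and 1833 to 1850 bp in cKO, at Rbm42 1744 to 1849 bp and 1864 to 1895 bp, and inside Asic2, an acid-sensing channel gene, 1811 to 1941 bp and 1967 to 2058 bp.

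Across the 9469 regions, the log2 differences of H3K4me3 and H3K9ac went together with Pearson's r of 0.535 and Spearman's rho of 0.489, a description over regions of the same genome measured against the same 2 inputs. The differences of H3K4me3 inside and H3K4me1 in the flanks did not (r = -0.057, rho = 0.081). Of the 127 regions with shorter H3K9ac, 32 (25.2%) were among the 1537 with shorter flanking H3K4me1, which is 2.08% of those; 16.5% of all tested members had shorter flanking H3K4me1.

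Genes of the H3K4 methylation machinery started mostly in these regions, as did most genes that start in any of the H3K4me3 regions. Of genes matched to the RNA counts, 7406 started in these regions, 1489 in narrower acetylated, 1306 in broader acetylated and 1149 in not acetylated regions. Of 18 listed genes, 11 had a listed start, 9 of them in the regions and 2 in broader ones: Setd1a, the paralog of Setd1b, Kmt2c, the shared subunits Rbbp5, Wdr5 and Dpy30, Wdr82, a subunit of the SETD1 complexes, Men1, and the demethylases Kdm1a and Kdm5b. H3K9ac was called shorter or longer at none of the 9, and flanking H3K4me1 was shorter at 2. Those were Men1, with 2153, 1691, 2129 and 1094 bp in Control and 195, 251, 58 and 104 bp in cKO (adjusted p = 0.00311, limma), and Rbbp5, with 3470, 3445, 3240 and 3053 bp and 1973, 2670, 1638 and 2207 bp (adjusted p = 0.045). The median flanking difference of the 9 was -0.94 on the log2 scale, against -0.75 over the regions with a listed start and -0.02 over all regions tested, and 16.5% of all tested members were called shorter. H3K4me3, as a description, covered 3869, 3906, 4067 and 3904 bp at Wdr82 in Control and 2958, 2712, 2784 and 2654 bp in cKO, and 2440, 2564, 2259 and 2428 bp against 2524, 2490, 2304 and 2431 bp at Rbbp5. At Wdr82 the groups were apart and at Rbbp5 they overlapped. None of the 9 genes was called in neuron RNA with edgeR.

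The other lists hold few genes with a listed start and are given as counts. Of 16 plasticity genes with a listed start, 11 started in broader regions and 3 in these: Fosb and Creb1, which encode transcription factors induced by or responding to activity, and Crebbp, the acetyltransferase that CREB recruits. None of the 3 was called for H3K9ac or flanking H3K4me1. Inside the regions H3K4me1 rose at Crebbp, from 1146, 1142, 1177 and 1285 bp in Control to 1651, 1590, 1612 and 1530 bp in cKO, and fell at Creb1, from 791, 765, 762 and 758 bp to 692, 712, 718 and 689 bp (adjusted p = 0.00937 and 0.0434, limma). At Fosb, H3K4me3 covered 3524, 3581, 3510 and 3652 bp in Control and 3437, 3704, 3608 and 3554 bp in cKO, overlapping, and at Crebbp 1950, 1940, 1857 and 1914 bp and 1271, 1723, 1373 and 1328 bp, apart. Of 12 neuron markers with a listed start, 8 were in broader regions and 3 in these, Map2, Wfs1 and Grik4. At Wfs1, a CA1 marker, flanking H3K4me1 covered 2402, 2325, 2297 and 1935 bp in Control and 1299, 1343, 1271 and 1227 bp in cKO (adjusted p = 0.00238, limma). Wfs1 RNA fell too, from 151, 141 and 129 CPM in Control to 64.9, 63.2 and 67.9 CPM in cKO neuron RNA (adjusted p = 0.000219, edgeR), while Map2 and Grik4 were not called. Of the markers of other cells, the regions held 2 of 9 listed starts for inhibitory neurons (Gad2 and Dlx1), 0 of 4 for oligodendrocytes, 0 of 3 for microglia, 1 of 4 for astrocytes (Slc1a3) and 1 of 4 for endothelial cells (Kdr, at 5.46 to 6.16 CPM in Control and 3.78 to 4.27 CPM in cKO neuron RNA, adjusted p = 0.0411, edgeR). Of 11 listed genes for acetylation enzymes, 7 started in the regions, of which 1 had shorter flanking H3K4me1, and of 6 housekeeping genes 3, of which Ppia fell from 1588, 1276, 1152 and 993 bp to 0, 388, 299 and 22 bp (adjusted p = 0.0396).

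RNA from the genes that start in the regions changed at few genes. Of the genes with a start in a region that matched a counted gene, 97.7% passed the expression filter in neuron RNA, against 26.7% of those starting in no region. With edgeR's quasi-likelihood test, 102 of 7334 such genes were lower in neuron RNA labelled cKO (1.39%) and 26 were higher (0.355%), against 2.0% and 0.744% of all 19622 genes tested. In whole CA RNA, 133 of 7067 were lower (1.88%) and 79 higher (1.12%), against 2.79% and 1.38% of all 15362 genes. Both shares lay below those of all genes in both materials. In neuron RNA the 128 calls fell to 49 and 59 without cKO replicates 1 and 2 and to 68 without Control replicate 2 or 3, and in whole CA the 212 calls fell to 140 without Control replicate 3. In RNA, fewer cells of a type and less RNA per cell cannot be told apart; whole CA microglia markers (6 of 6 detected) summed to 266 to 320 CPM in Control and 232 to 259 CPM in cKO, and their part in the whole CA calls was not tested.

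Thsd4, a secreted thrombospondin-type protein gene, was at 130, 110 and 101 CPM in Control neuron RNA and at 35.5, 32.4 and 40.7 CPM in cKO, a log2 fold change of -1.66 ± 0.121 (SE; adjusted p = 0.000129, edgeR). In whole CA it was at a median of 114 CPM (98.4 to 121) in Control and 41.9 CPM (37.4 to 47.6) in cKO (log2 fold change -1.42). Its region also changed: H3K4me3 covered 3288, 3237, 3179 and 3198 bp in Control and 1198, 1796, 2049 and 1247 bp in cKO, and H3K9ac fell with an adjusted p of 0.0277 (limma). Scube1 was at 77.5, 57.8 and 60.4 CPM in Control neuron RNA and at 24.5, 22.5 and 25.6 CPM in cKO, and at medians of 54.9 and 22.5 CPM in whole CA. Its H3K4me3 lengths overlapped between the genotypes (2044 to 2208 bp and 1676 to 2246 bp), while its H3K27ac lengths, given above, did not. Both genes were lower in every cKO library of both materials.

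Npr1, the receptor for atrial natriuretic peptide, was at 6.42, 4.93 and 4.73 CPM in Control neuron RNA and at 0.807, 0.662 and 0.736 CPM in cKO (log2 fold change -2.87 ± 0.172). The predicted gene Gm34583 was at 12.6, 11.9 and 10.8 CPM in Control and at 2.48, 2.85 and 3.14 CPM in cKO, and Fzd10, a Wnt receptor gene, at 4.87, 4.96 and 3.11 CPM and at 1.70, 1.53 and 1.36 CPM. At Gm34583, H3K4me3 covered 2198, 2415, 2162 and 2384 bp in Control and 870, 609, 900 and 609 bp in cKO. At Npr1 it covered 1642 to 1822 bp in Control and 1673 to 1806 bp in cKO, so the groups overlapped although the RNA fell. In whole CA, Tmem215 was at a median of 12.96 CPM (8.74 to 16.1) in Control and 4.36 CPM (3.18 to 5.26) in cKO, and Il16, a cytokine precursor gene, at 36.0 CPM (31.5 to 38.1) and 13.99 CPM (11.4 to 16.5). H3K4me3 at both was shorter in every cKO library than in any Control library, at Tmem215 with 1745 to 2762 bp and 902 to 1018 bp and at Il16 with 1931 to 2194 bp and 685 to 1101 bp.

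Wdr17 rose, from 68.8, 76.7 and 77.8 CPM in Control neuron RNA to 162, 146 and 136 CPM in cKO (log2 fold change 0.98 ± 0.098, adjusted p = 0.000832, edgeR) and from a median of 39.7 CPM (37.6 to 43.3) to 76.4 CPM (73.4 to 78.3) in whole CA. Dus4l, a tRNA dihydrouridine synthase gene, rose from 13.5, 15.2 and 14.4 CPM to 24.8, 23.6 and 23.1 CPM in neuron RNA and from a median of 5.17 to 8.96 CPM in whole CA. Its region, shared with the start of Cog5, had shorter flanking H3K4me1, with 721, 910, 811 and 936 bp in Control and 111, 65, 52 and 182 bp in cKO (adjusted p = 0.00146, limma). Gm15834 and 9530062K07Rik, whose regions also hold the starts of Orc2 and Washc2, and Rtbdn rose in neuron RNA by 0.84, 0.83 and 0.66 on the log2 scale, calls that were lost when some single libraries were left out. Kif17, a kinesin motor gene, rose from a median of 21.6 to 33.9 CPM in whole CA, Cdkl4 from 24.1 to 39.3 CPM and Gm15506 from 3.12 to 5.18 CPM. The strand setting of the counting is not given in the sources used here, so reads of overlapping or antisense partners at these shared starts cannot be told apart.

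**Figure D5:**
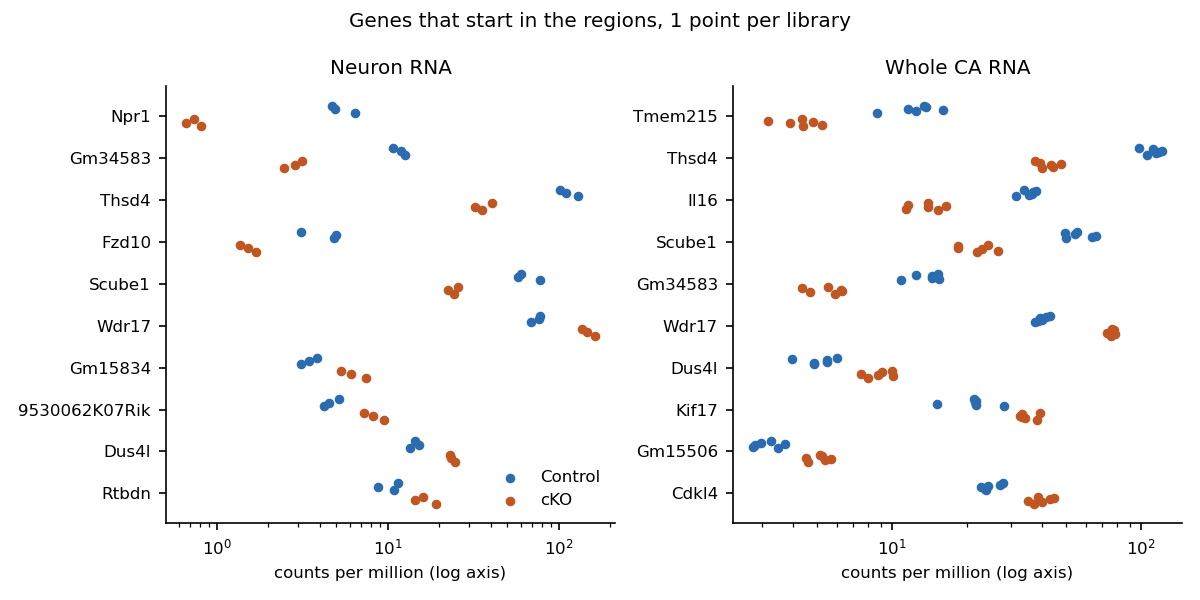
CPM on a log axis of genes that start in the regions, 1 point per library, for neuron RNA (left) and whole CA RNA (right), with the genes called lower first and those called higher after them. Thsd4 is at 101 to 130 CPM in Control and 32.4 to 40.7 CPM in cKO neuron RNA, and the groups do not overlap at any gene drawn, as the choice of these genes required.

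The marks at the regions of called genes differed from those at the other genes, as a description. At the 103 regions of the 102 genes lower in neuron RNA, the median log2 difference of H3K27ac was -0.43, against -0.07 at regions of genes not called. The same medians were -0.28 and -0.12 for H3K4me3 and -0.23 and -0.07 for H3K9ac. For H3K4me1 in the flanks the order was the other way, with -0.19 at regions of genes lower in RNA and -0.78 at those not called. Of the tested regions, 9 of 100 of the lower genes were called shorter against 1177 of 6411 of those not called. Genes higher in neuron RNA had a flank median of -0.29, with 2 of 26 regions called shorter. By whole CA calls the flank medians were -0.44 (lower), -0.32 (higher) and -0.79 (not called). The flank difference was thus smaller at called genes of both directions. Over 7198 genes, the neuron RNA fold change and the H3K27ac difference had r = 0.31 and rho = 0.266, and neuron RNA and flanking H3K4me1 r = -0.088 and rho = -0.1. With whole CA RNA, over 6932 genes, H3K27ac had r = 0.177 and rho = 0.1. Flanking H3K4me1 there had r = 0.0052 and rho = 0.048, so its negative sign was seen in neuron RNA only.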

How the data were processed

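The deposited ChIP files are peak lists, 1 per library, that give each peak's position, its fold enrichment, its pileup signal and the −log10 of its p- and q-value. Per the file headers, the authors called peaks per library with MACS2 at a q-value threshold of 0.1, in broad mode for H3K4me1 only, with 1 input per genotype. Samples were mapped to mm10 (GRCm38), per the submitters' processing notes. The deposited RNA files hold a whole-number read count per Ensembl gene; aligner, annotation and strand setting are not given in the sources used here.

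Peaks of each library were merged, and the covered length per region was compared on the log2(length + 100 bp) scale with limma 3.58.1 over all regions. Counts were tested with edgeR 4.0.16 (TMM, filterByExpr, quasi-likelihood test), with DESeq2 1.42.0 as an alternative. All p-values were adjusted by Benjamini-Hochberg over all regions or genes tested, with calls at 0.05. Of 8111 gene symbols starting in the regions, 7623 matched an Ensembl ID. Scripts were tested on simulated data.

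The regions, gene lists and tests were chosen with earlier results of these data known. Named regions were those closest to the width bounds and to the median width, up to 5 each way by adjusted p (H3K9ac, H3K4me1), the 5 lowest and 3 highest differences without overlap (H3K4me3, H3K27ac), up to 3 each way per gene list, and up to 5 genes each way by RNA fold change among those whose average log2 CPM reached 1 and whose genotypes did not overlap. Alternatives left out each library, sequencing lane by lane, and changed the offset, centring, filter, peak strength, merging and choice of regions. Lanes are those of the file names. Library depths limit the precision of each count.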

Additional observations from a re-analysis of the deposited data

Results flagged for a closer look

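A library far from the others of its group was looked for in 68 groups, of which chance alone would give about 1 in 20. In H3K9ac, Control replicate 1 covered 17.5 Mb of the regions and lay apart from the other 3 Control libraries, towards the cKO libraries. Among the H3K9ac libraries it shared its lane with cKO replicate 1 alone.

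Single regions had a library apart in 5 cases, most of them where the other libraries were covered completely or not at all. H3K4me1 at Gcnt2 was 1809 bp in Control replicate 4, inside Erich1 2330 bp in Control replicate 1, and at Rtn4 3346 bp in cKO replicate 2. At the region of Frs3 and Prickle4 it was 1116 bp in Control replicate 4, and in the flanks of the region of Parpbp and Nup37 it was 4 bp in Control replicate 2, where the other Control libraries had 0 bp. Each of these libraries lay outside the range of the other genotype.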

How the results depend on the processing

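Counts are regions or genes called in either direction. For H3K9ac inside the regions (128 in the analysis as reported), they were 334 with an offset of 1000 bp, 226 with a peak in every library, 193 with peaks of -log10 q of at least 5, 208 with peaks within 1000 bp merged, 85 with regions extended by 2000 bp, 57 with regions chosen in cKO, 51 with regions under 3000 bp, 6 within lane 6 and 14 to 99 without 1 library. For H3K4me1 inside (97), they were 164 with the stricter peaks, 195 with regions chosen in cKO, 60 with regions under 3000 bp and 75 to 188 without 1 library; the direction turned with regions extended by 2000 bp (706; median log2 difference -0.17) and with the mark's own merged regions (425; -0.16). Flanking H3K4me1 (1552) gave 851 with a peak in every library, 925 within lane 3, 1034 with flanks of 1000 bp and 896 to 1543 without 1 library, and turned with the stricter peaks (126). H3K4me1 after the starts (960) gave 613 with libraries centred, 661 to 928 without 1 library and, turned, 44 with the stricter peaks; H3K9ac there (239) gave 417 with the larger offset, 63 centred, 121 within lane 6 and 86 to 211. Before the starts, small counts turned: H3K4me1 with the stricter peaks (23), and H3K9ac with the larger offset (8), centred (17), with a peak in every library (3) and without Control replicate 1 (23), cKO replicate 1 (1) or cKO replicate 2 (4), within a range of 0 to 27 over the libraries left out. The difference between both windows gave 893 with the larger offset and 306 to 452 without 1 library for H3K4me1 (520), and 293 and 11 to 57 for H3K9ac (97). The H3K4me3 median (-0.13) was -0.0466 with libraries centred, -0.17 in regions of at least 2000 bp, -0.0411 with regions chosen in cKO and -0.14 to -0.10 without 1 library; that of H3K27ac (-0.07) was -0.10 to -0.04. Genes called were 235 with DESeq2 and 49 to 113 without 1 library in neuron RNA (128), and 65 and 67 within lanes 1 and 2 and 140 to 234 without 1 library in whole CA (212). Where fewer libraries or regions were tested that by itself lowers counts; for the other settings the cause was not tested.

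For no mark and neither RNA material did every same-numbered pair of libraries deviate together (correlation over 0.1), so the replicate numbers were not taken as pairs. In whole CA RNA, replicates 1 to 4 did pass, at 0.113, 0.133, 0.157 and 0.281, while replicates 5 and 6 were at 0.053 and -0.077. A pairing there is thus not settled. With that number fitted as a block (replicate block), calls were 0 for H3K9ac inside, after the starts and for the difference of windows, 15 for H3K4me1 inside, 589 for flanking H3K4me1, 519 after the starts and 16 for the difference, and 72 in neuron RNA. In whole CA RNA, where 133 genes were lower and 79 higher as reported, the block raised these counts to 186 and 105. The block also ended the calls of all 6 named H3K9ac regions. Named regions were not followed under the settings that changed peak strength, merging, flank size or the choice of regions. Under the remaining settings, 37 values of named regions and genes lost the call and the others kept direction and call. Of the summary values, under all settings, 182 stayed within 1.5 times or 1 SD, 75 moved and 13 turned.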
